A study of Mus musculus with 6 samples.

Results

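Hox cluster genes are described here in primary osteoblasts, cells that lay down bone, grown from the skull caps of mice. The members are the protein-coding genes of GENCODE mouse release M21 whose symbol is Hox, a cluster letter from a to d and a number. That rule found 39 genes among 51912 gene IDs in the count table, and it used no measured value. RNA was sequenced from 6 libraries of osteoblasts taken from calvaria of 1 d old C57BL/6J pups. All pups were Mark3 flox/flox, so the cells of both groups carried the loxP-flanked alleles of Mark3, which encodes a serine/threonine kinase. The 3 WT libraries, labelled wild-type, came from cells given GFP adenovirus for 24 h. The 3 Mark3-KO libraries, labelled Mark3-/-, came from cells given CRE adenovirus for 24 h. Genotype and virus changed together, and no group without virus was analysed. Whether replicate libraries stem from separate cultures or animals is not in the labels, so p-values reflect only the spread among these libraries, and that spread may be technical.

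Hox genes encode homeodomain transcription factors that give cells their position along the head-to-tail axis. They lie in 4 clusters, Hoxa to Hoxd, and genes with the same number in different clusters form a paralogue group. Genes with low numbers are active early and towards the head, those with high numbers late, towards the tail and in the outer limb, an order called collinearity. The bones of the calvaria form from cranial neural crest and head mesoderm, tissues that lie in front of the Hox domains, and the neural crest cells of the upper face and skull vault are known as Hox-negative. Outside their domains the clusters are held silent by Polycomb complexes, and Hox proteins bind DNA together with TALE cofactors of the Pbx and Meis families.

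Depth and library quality bear on every value below. The WT libraries held 63560939, 57154757 and 67044409 counts, and the Mark3-KO libraries 71445243, 56925883 and 59098701 counts. Levels are CPM, counts relative to library size after scaling by TMM (edgeR's normalization), as mean ± SD of the 3 libraries of a group. Mark3 measured 113, 118 and 118 CPM in WT against 47.6, 52.4 and 44.1 CPM in Mark3-KO. The log2 fold change was -1.27 (SE 0.10) with a Benjamini-Hochberg adjusted p of 0.0153 by the quasi-likelihood test of edgeR. The targeted gene was thus lower in every Mark3-KO library than in any WT library, the direction of the labels. The loss of its RNA was partial, with 44.1 to 52.4 CPM left in Mark3-KO. The libraries differed along an axis of GC content (the share of G and C bases in a gene's exons). In the tenth of genes richest in GC (57.6% or more), the median log2 ratio to the gene's mean was 1.12, 0.69 and 0.10 in WT against -0.19, -0.69 and -0.96 in Mark3-KO. WT replicate 3 and Mark3-KO replicate 1 lay next to each other on it. The tested Hox genes had a median GC content of 55.1%, against 49.8% for all tested genes, and GC-corrected values are given beside the fold changes of the tested Hox genes described below. All 10 osteoblast markers had counts and 8 reached 1 CPM, with Bglap (0.457 CPM) and Dmp1 (0.259 CPM) below it. Their summed levels were 18700 to 39100 CPM in WT against 13200 to 15000 CPM in Mark3-KO. Most of that sum was Col1a1 and Col1a2. Without overlap between the groups, 4 of the 10 were lower in Mark3-KO and 1 was higher, against 53.3% of all tested genes in either direction. The higher one was Spp1, at 1178 ± 90.7 CPM in WT against 1489 ± 56.9 CPM in Mark3-KO. Markers of other cells that the cultures could hold were summed per library, and their part in the Hox levels was not tested. All 6 haematopoietic markers had counts (206 to 229 CPM in WT against 228 to 269 CPM in Mark3-KO), as did all 6 chondrocyte markers (674 to 1740 and 352 to 586 CPM). All 4 pericyte markers summed to 375 to 610 and 125 to 297 CPM, and all 5 neural and Schwann markers to 25.1 to 44.3 and 14.2 to 23.1 CPM. The 5 endothelial markers summed to 4.17 to 4.52 and 4.26 to 4.59 CPM, the 4 adipocyte markers to 3.33 to 3.76 and 3.71 to 4.06 CPM. Of 5 skeletal muscle markers 4 had counts, with Myf5 at 0, and they summed to 3.95 to 9.62 and 0.878 to 2.62 CPM.

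**Figure D1:**
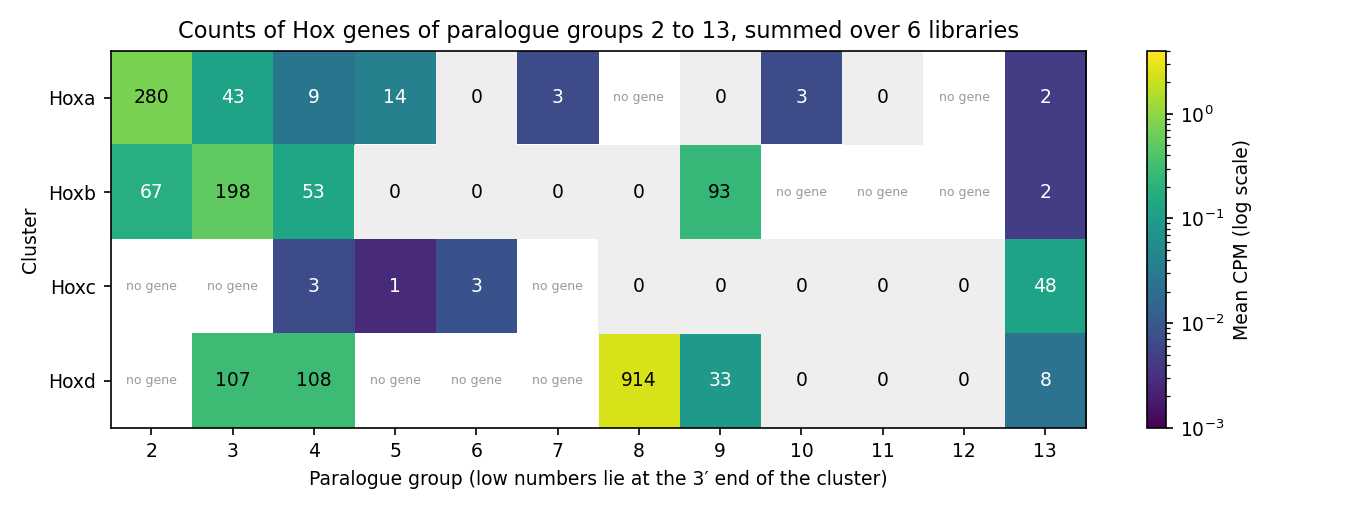
Hox genes by cluster (rows) and paralogue group 2 to 13 (columns). Each cell gives the total count over the 6 libraries, colour shows the mean level in CPM on a log scale, and positions marked no gene are empty; Hoxd8, with 914 counts, stands apart, and 15 of the genes drawn had 0 counts.

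Hox RNA was scarce in these cultures, and most of it came from the head end of the clusters and from Hoxd8. All 39 genes together took 2350 counts out of 375229932, or 6.26 CPM before TMM scaling. Hoxd8 alone reached a mean of 1 CPM. A further 8 genes lay below 1 CPM but passed the filter on low counts (edgeR's filterByExpr), among them Hoxa2, Hoxb3, Hoxb4, Hoxb9, Hoxc13, Hoxd3 and Hoxd4. Another 14 had some counts and did not pass, and 16 had 0 counts in all 6 libraries. The summed level was 6.77, 5.72 and 6.28 CPM in WT against 6.31, 6.18 and 6.28 CPM in Mark3-KO, so the groups overlapped. In bulk RNA, fewer cells expressing a gene and less RNA per cell cannot be told apart.

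To show what lies in front of neighbouring genes at unlike levels, the 250 bases upstream of the RefSeq start sites (GRCm38.p6, forward strand) are given for 3 adjacent Hoxd genes, from the tail side inwards: Hoxd10 (0 counts), Hoxd9 (33 counts) and Hoxd8 (914 counts). They span chr2:74691641-74691890, chr2:74697513-74697762 and chr2:74704365-74704614. Capitals mark CG dinucleotides, the sites of DNA methylation.
Hoxd10: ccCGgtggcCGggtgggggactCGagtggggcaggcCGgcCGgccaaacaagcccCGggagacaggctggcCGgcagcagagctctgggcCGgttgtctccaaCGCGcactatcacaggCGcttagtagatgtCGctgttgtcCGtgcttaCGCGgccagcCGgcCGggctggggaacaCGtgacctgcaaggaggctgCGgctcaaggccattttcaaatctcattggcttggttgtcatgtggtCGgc
Hoxd9: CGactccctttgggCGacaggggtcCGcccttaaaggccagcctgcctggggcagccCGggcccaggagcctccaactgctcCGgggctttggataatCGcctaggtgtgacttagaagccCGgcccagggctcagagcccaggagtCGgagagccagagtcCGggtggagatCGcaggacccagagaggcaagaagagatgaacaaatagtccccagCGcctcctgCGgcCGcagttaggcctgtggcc
Hoxd8: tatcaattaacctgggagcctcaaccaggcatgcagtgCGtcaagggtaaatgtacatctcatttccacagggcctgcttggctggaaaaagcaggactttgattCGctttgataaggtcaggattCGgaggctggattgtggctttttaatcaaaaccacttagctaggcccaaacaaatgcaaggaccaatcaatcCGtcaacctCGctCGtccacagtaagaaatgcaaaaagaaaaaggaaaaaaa
The Hoxd8 stretch held 6 CG dinucleotides and 44.4% G and C, the Hoxd9 stretch 13 and 65.2%, and the Hoxd10 stretch 20 and 65.6%. Across the 24 RefSeq promoters found for 22 of the 39 genes, the median was 12.5 CG dinucleotides (range 2 to 35), against 6 over 32851 promoters of all genes. The 15 promoters of Hox genes with counts had a median of 13, and the 9 of genes with 0 counts a median of 12, so the medians of the 2 sets lay close together. Some of the 15 belong to genes with 2 or 3 counts in all. The 5 promoters of Hox genes that passed the filter on low counts had a lower median of 6 (range 3 to 14). Neither TATAAA, the core of a TATA box, nor TGATNNAT, the letters of a joint Pbx and Hox site, was found on either strand of the 3 printed stretches. TATAAA occurred in 4 of the 24 Hox promoters (16.7%) and in 12.4% of all promoters, among the Hox genes in front of Hoxa10, Hoxb8, Hoxd4 and Hoxd13. TGATNNAT occurred in 4 of 24 (16.7%) and in 7.68% of all, in front of Hoxa2, Hoxb1, Hoxb8 and Hoxd11. These are matches of letters within 250 bases and show no binding.

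The Hoxd cluster took 1190 of the 2350 counts (50.6%), with counts in 6 of its 9 genes. Hoxa took 692 counts (29.4%) in 8 of 11 genes, Hoxb 413 counts (17.6%) in 5 of 10, and Hoxc 55 counts (2.34%) in 4 of 9. The Hoxc cluster stood out as nearly empty: Hoxc13 held 48 of its counts, and no Hoxc gene had counts in all 6 libraries. By position, paralogue groups 1 to 4 had counts in 11 of 12 genes and took 1226 counts (52.2%), with Hoxb1 the only member at 0. Paralogue groups 5 to 13 had counts in 12 of 27 genes, and without Hoxd8 those groups took 210 counts (8.94%). Groups 10 to 13, which pattern the lower trunk and the outer limb, took 63 counts (2.68%), of which Hoxc13 held 48.

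The summed level of paralogue groups 1 to 4 was 4.60, 3.12 and 3.16 CPM in WT against 2.99, 2.85 and 2.99 CPM in Mark3-KO. WT replicate 1 stood well above the other libraries, which lay close together, and every WT library lay above every Mark3-KO library. Groups 5 to 8, in which Hoxd8 held most counts, came to 1.61, 2.05 and 2.56 CPM in WT against 2.65, 3.0 and 2.96 CPM in Mark3-KO, with WT replicate 1 lowest. Here every WT library lay below every Mark3-KO library. These sums were not tested, and libraries of WT and Mark3-KO did not overlap for 53.3% of all tested genes.

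Within the Hoxd cluster, on chromosome 2, the genes lie, by where they end, in the order Hoxd13, Hoxd12, Hoxd11, Hoxd10, Hoxd9, Hoxd8, Hoxd4, Hoxd3 and Hoxd1. Their counts in that order were 8, 0, 0, 0, 33, 914, 108, 107 and 20. Hoxd8 thus lay between a side with few or no counts and a side with some. Hoxd8 (ENSMUSG00000027102; chromosome 2, 74704615 to 74707933, GRCm38, plus strand) encodes a homeodomain factor of the central group. Per kilobase of exon, which allows levels of different genes to be compared, it measured 0.881 CPM per kb. That lay above 23.4% of 14191 tested protein-coding genes, whose median was 4.32 CPM per kb. No other Hox gene exceeded the 0.422 CPM per kb of Hoxa2. Hoxb3 measured 0.125, Hoxd4 0.101 and Hoxb9 0.0962 CPM per kb. Hoxd3, Hoxb4 and Hoxc13 measured 0.0695, 0.0533 and 0.0491 CPM per kb. Every untested Hox gene was at or below 0.0513 CPM per kb, the value of Hoxb2.

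**Figure D2:**
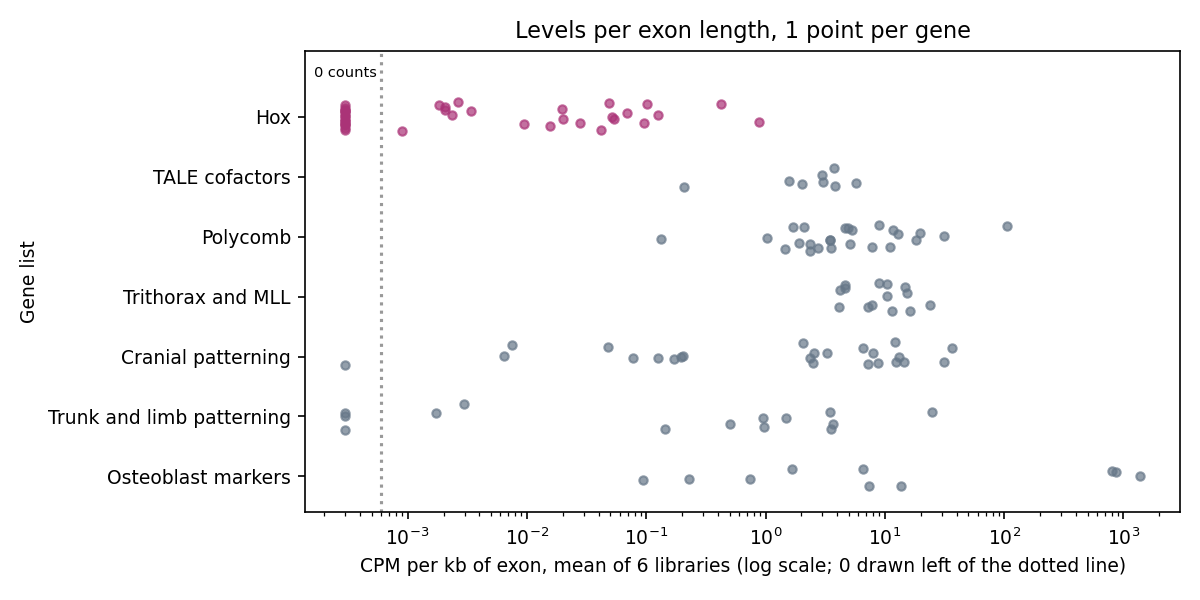
Mean level over the 6 libraries in CPM per kilobase of exon (log scale), 1 point per gene shown, for Hox genes and 6 lists of other genes; genes with 0 counts are drawn in the band labelled 0 counts. The highest Hox gene, Hoxd8, measured 0.881, while the median was 3.01 for TALE cofactors, 4.66 for Polycomb genes and 9.68 for Trithorax and MLL genes.

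The comparison of Mark3-KO with WT asks which transcripts differ after exposure to CRE rather than GFP adenovirus. For the Hox genes the answer was that none of the 9 tested members passed: 0 of 9 had an adjusted p below 0.05 by the quasi-likelihood test of edgeR (Benjamini-Hochberg) over 19017 genes, where 41 genes passed (0.216%). The count was also 0 of 9 with the DESeq2 Wald test, where 36.4% of all tested genes passed, and with limma-voom (0.142%). DESeq2 gave no adjusted p for Hoxb4 and Hoxc13. At an unadjusted p below 0.05 in edgeR, 1 of 9 members stood (Hoxd4), against 45.7% of all tested genes. Among the 6688 tested genes between 0.121 and 2.42 CPM, the span of the tested Hox genes, that share was 23.9%. Libraries of the groups did not overlap for 1 of the 9 (Hoxd8, higher in Mark3-KO), against 53.3% of all tested genes. The genes that did not overlap and were higher in Mark3-KO made up 25.8% of all tested genes. At the level of the Hox genes 30.6% did not overlap in either direction. The median log2 fold change of the 9 was -0.04, and 0.02 over all tested genes. It turned positive with library size alone as the scaling (0.08) and after the GC correction (0.43), so no common direction is given.

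**Figure D3:**
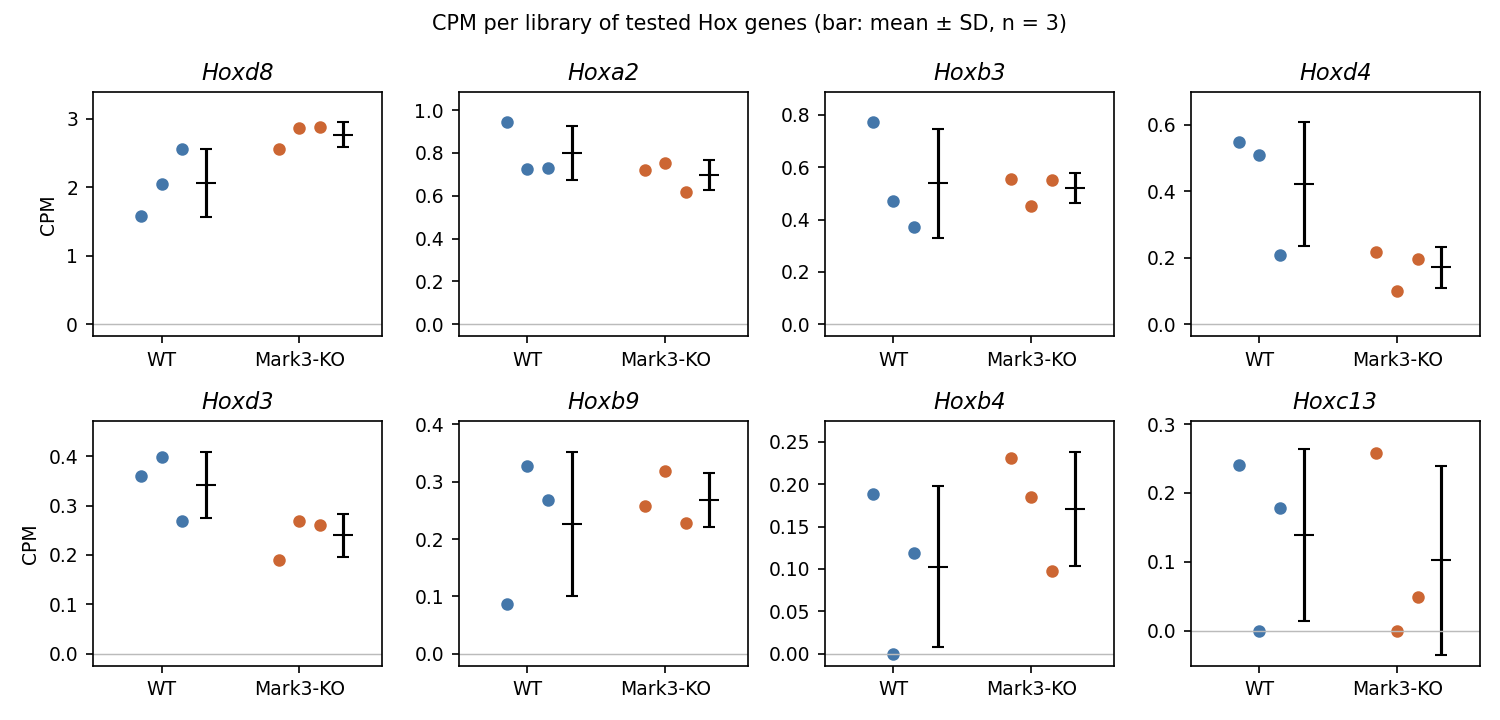
CPM of 8 tested Hox genes in each library (points), with mean ± SD of the 3 WT and the 3 Mark3-KO libraries (bars and whiskers; the lower whisker of Hoxc13 in Mark3-KO runs below 0). Each panel has its own axis; Hoxd8 measured 2.06 ± 0.49 CPM in WT against 2.77 ± 0.18 CPM in Mark3-KO, and Hoxd4 0.422 ± 0.186 and 0.171 ± 0.0619 CPM.

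Hoxd8 had 92, 113 and 172 counts in WT against 189, 171 and 177 in Mark3-KO. These were 1.58, 2.05 and 2.56 CPM in WT against 2.56, 2.87 and 2.88 CPM in Mark3-KO. WT replicate 1 was lowest, the Mark3-KO libraries lay close together, and the highest WT library fell short of the lowest Mark3-KO library by 0.00046 CPM. The groups therefore met without overlapping, and they overlapped in 5 of the 17 fits made, among them the fit with no filter on low counts. Group means were 2.06 ± 0.49 and 2.77 ± 0.18 CPM, giving 0.42 as log2 fold change (SE 0.22, edgeR adjusted p 0.176), which did not pass the threshold. Without WT replicate 1 it was 0.26. Corrected for GC content, Hoxd8 had a log2 fold change of 1.13, with an edgeR adjusted p of 0.110, in a fit where 0.358% of all tested genes and 0 of 9 Hox genes passed. With the replicate number as a block beside that correction it was 1.19 and passed, with an edgeR adjusted p of 0.0326, as did 9.83% of all tested genes; the replicate numbers were not shown to pair the libraries. The share of all Hox counts held by Hoxd8 was 23.3, 35.9 and 40.9% in WT against 40.6, 46.5 and 45.9% in Mark3-KO, with WT replicate 3 above Mark3-KO replicate 1.

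Hoxa2 (chromosome 6, 52162417 to 52164831, minus strand) acts in the hindbrain and sets the identity of the second pharyngeal arch, whose skeleton lies below the calvaria. It had 55, 40 and 49 counts in WT against 53, 45 and 38 in Mark3-KO. WT replicate 1 was highest, and the other libraries lay close together, so the groups overlapped. Its means of 0.800 ± 0.124 and 0.697 ± 0.0710 CPM gave a log2 fold change of -0.20 (SE 0.22, edgeR adjusted p 0.50), and -0.28 when corrected for GC.

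Hoxb3 (chromosome 11, 96323326 to 96347930, plus strand), another hindbrain gene, had 45, 26 and 25 counts in WT against 41, 27 and 34 in Mark3-KO. Levels were 0.539 ± 0.208 and 0.521 ± 0.0587 CPM (log2 fold change -0.04, SE 0.32, edgeR adjusted p 0.925), and WT replicate 1 was the highest of all 6. After the GC correction the log2 fold change turned to 0.82, with an edgeR adjusted p of 0.111. The antisense gene Hoxb3os, with 20 counts, covers 2250 of its 4251 exon bases (52.9%). The library kit does not mark strand, so reads of a gene and its antisense partner cannot be told apart.

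**Figure D4:**
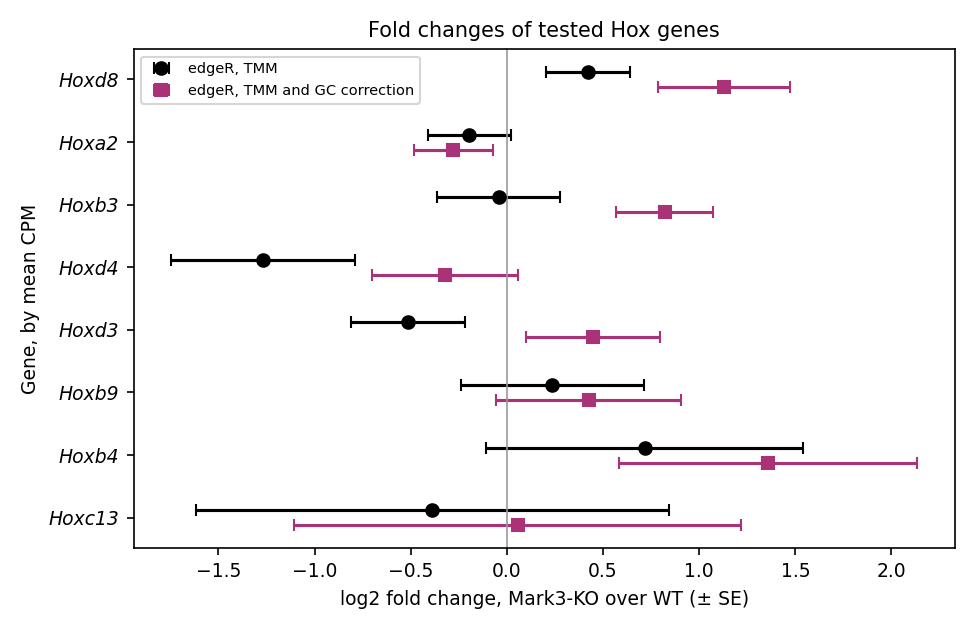
Log2 fold change of Mark3-KO over WT for 8 tested Hox genes, without (main) and with the GC correction; points are estimates and whiskers ± 1 SE. The estimate of Hoxd8 went from 0.42 to 1.13, that of Hoxb3 from -0.04 to 0.82, that of Hoxd3 from -0.51 to 0.45 and that of Hoxd4 from -1.27 to -0.32, and none passed the threshold in either fit.

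Hoxd4 and Hoxd3 overlap on chromosome 2 and were counted beside a readthrough model, Gm28230. Hoxd4 (74711929 to 74729160, plus strand) had 32, 28 and 14 counts in WT against 16, 6 and 12 in Mark3-KO. The highest Mark3-KO library was above WT replicate 3, so the groups overlapped. Levels of 0.422 ± 0.186 and 0.171 ± 0.0619 CPM gave a log2 fold change of -1.27 (SE 0.48), with an unadjusted p of 0.0342 and an adjusted p of 0.0860 by the quasi-likelihood test of edgeR (Benjamini-Hochberg). Without WT replicate 3 the log2 fold change was -1.62, with an edgeR adjusted p of 0.0326, in a fit where 32.9% of all tested genes passed. After the GC correction it was -0.32, with an edgeR adjusted p of 0.634.

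Gm28230 shares 1154 of the 2948 exon bases of Hoxd4 (39.1%) and 2225 of the 4191 of Hoxd3 (53.1%). It had 0, 0 and 0 counts in WT against 16, 13 and 0 in Mark3-KO. How reads shared by such models were assigned is not given in the sources used here. With Gm28230 added, Hoxd4 came to 32, 28 and 14 counts in WT against 32, 19 and 12 in Mark3-KO, or 0.422 ± 0.186 and 0.316 ± 0.120 CPM. The log2 ratio of those means was -0.42, against -1.27 in the fit of Hoxd4 alone, and the groups overlapped. Hoxd3 (74711927 to 74748442, plus strand) had 21, 22 and 18 counts in WT against 14, 16 and 16 in Mark3-KO. Its levels of 0.343 ± 0.0673 and 0.240 ± 0.0432 CPM overlapped between the groups (log2 fold change -0.51, SE 0.30, edgeR adjusted p 0.216), and the GC correction turned the sign to 0.45. With Gm28230 added, Hoxd3 came to 30, 29 and 16 counts in Mark3-KO and was as before in WT, which turned the log2 ratio of means to 0.17, with overlapping groups. All 3 models together had 53, 50 and 32 counts in WT against 46, 35 and 28 in Mark3-KO, a log2 ratio of means of -0.46.

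**Figure D5:**
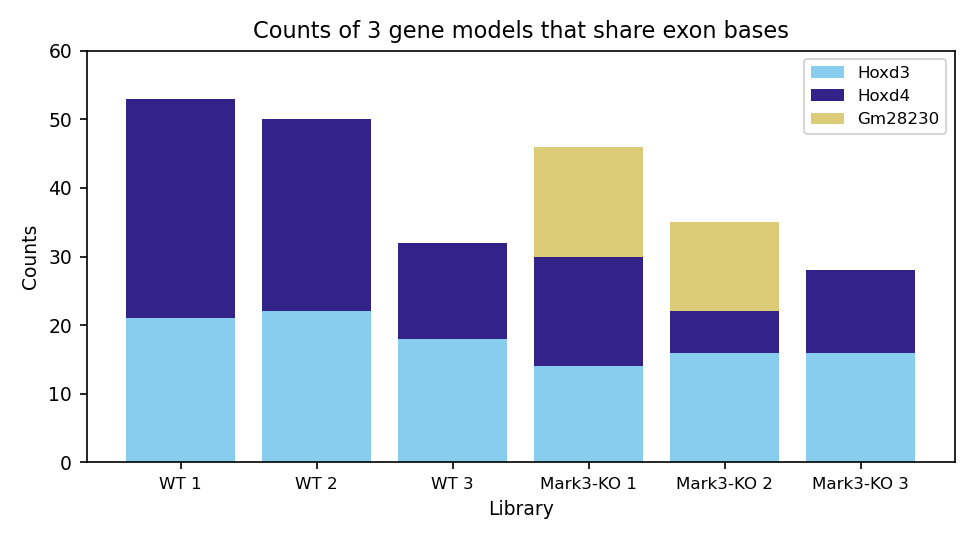
Counts of Hoxd3, Hoxd4 and the overlapping model Gm28230, stacked, in each library. Gm28230 had counts in Mark3-KO replicates 1 and 2 only (16 and 13), and the 3 models summed to 32 to 53 counts in WT against 28 to 46 in Mark3-KO.

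The remaining tested members were close to the limit of counting. Hoxb9, a gene of the trunk, had 5, 18 and 18 counts in WT against 19, 19 and 14 in Mark3-KO (log2 fold change 0.24, SE 0.48, edgeR adjusted p 0.718), with WT replicate 1 apart from the other 5 libraries. Without WT replicate 1 it was -0.15, and corrected for GC 0.43. Hoxb4 had 11, 0 and 8 counts in WT against 17, 11 and 6 in Mark3-KO (0.72, SE 0.82, edgeR adjusted p 0.521). With 1 library left out, the estimate for Hoxb4 ran from 0.16 without WT replicate 2 to 1.41 without WT replicate 1. It was highest, at 1.68, without WT replicate 1 and Mark3-KO replicate 3 together. Corrected for GC it was 1.36 with an edgeR adjusted p of 0.307, and its groups then did not overlap. Hoxc13, which is known for its part in hair and nails, had 14, 0 and 12 counts in WT against 19, 0 and 3 in Mark3-KO (-0.39, SE 1.23, edgeR adjusted p 0.821). Hoxc13 was thus at 0 in 1 library of each group, and the GC correction turned its sign to 0.056. Epithelial markers were low in all libraries: 4 of 5 had counts, the keratin gene Krt14 was at 0, and their sum was 0.326 to 0.402 CPM in WT against 0.258 to 0.407 CPM in Mark3-KO.

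Of the 14 members with counts that were not tested, Hoxb2, Hoxa3, Hoxd9 and Hoxd1 held the most. Hoxb2, a hindbrain gene, had 26, 5 and 18 counts in WT against 10, 4 and 4 in Mark3-KO. The ratio of the summed counts, scaled for depth, was 0.368 (exact 95% binomial interval 0.202 to 0.643, counting error only), and WT replicate 2 lay among the Mark3-KO values. In the edgeR fit with no filter on low counts its log2 fold change was -1.56. The unadjusted p was 0.0378 and the adjusted p 0.153 by the quasi-likelihood test of edgeR, so it did not pass the threshold. In that fit 0 of the 23 Hox genes with counts passed, as did 0.184% of all genes, while 2 (Hoxb2 and Hoxd4) had an unadjusted p below 0.05. Hoxd9 had 9, 9 and 7 counts in WT against 5, 0 and 3 in Mark3-KO, a count ratio of 0.321 (0.125 to 0.733). Its groups did not overlap, and the same unfiltered edgeR fit gave a log2 fold change of -1.76 with an adjusted p of 0.197. In that fit the groups did not overlap for 34.1% of 33108 genes, and those lower in Mark3-KO made up 18.0% of all 33108. Hoxa3 had 14, 9 and 3 counts in WT against 5, 3 and 9 in Mark3-KO, and Hoxd1 had 2, 0 and 8 in WT against 3, 4 and 3 in Mark3-KO, with overlapping groups for both.

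Hoxa5 had 2, 0 and 0 counts in WT against 3, 7 and 2 in Mark3-KO, a count ratio of 6.01 with an interval of 1.34 to 55.3. That interval covers counting error only and not the spread among libraries. The unfiltered edgeR fit gave Hoxa5 a log2 fold change of 2.28 with an adjusted p of 0.305, which did not pass. Hoxa4 had 0, 5 and 4 counts in WT against 0 in every Mark3-KO library. Setting Mark3-KO at the floor of 3 counts over the group makes it 2.995-fold lower. That value leaves out the counting error of the WT counts, so it is not a lower bound. In the unfiltered edgeR fit the adjusted p of Hoxa4 was 0.183. Hoxd13, a gene of the digits, had 5, 3 and 0 counts in WT against 0 in every Mark3-KO library. By the same floor it was 2.66-fold lower, with the same limit, and its adjusted p in that edgeR fit was 0.203. For Hoxa4 and Hoxd13, 1 WT library was at 0 like the Mark3-KO libraries, and for Hoxa5 WT replicate 1 and Mark3-KO replicate 3 had 2 counts each, so the groups met in all 3. The last 7 had counts in 1 library each. Hoxa7, Hoxa10 and Hoxc4 had 3 counts and Hoxa13 and Hoxb13 had 2, all in Mark3-KO replicate 1, the deepest library. Hoxc5 had 1 count in Mark3-KO replicate 2, and Hoxc6 had 3 in Mark3-KO replicate 3. These are at or under 3 counts, so no fold is given. The number of Hox genes with any count was 15, 12 and 14 in WT against 19, 13 and 15 in Mark3-KO.

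The 16 genes with 0 counts in every library were Hoxa6, Hoxa9 and Hoxa11 in the Hoxa cluster, and Hoxb1, Hoxb5, Hoxb6, Hoxb7 and Hoxb8 in the Hoxb cluster. In the Hoxc cluster they were Hoxc8, Hoxc9, Hoxc10, Hoxc11 and Hoxc12, and in the Hoxd cluster Hoxd10, Hoxd11 and Hoxd12. All but Hoxb1 belong to paralogue groups 5 to 13. They formed unbroken runs from Hoxb5 to Hoxb8, from Hoxc8 to Hoxc12 and from Hoxd10 to Hoxd12. At this depth 0 counts allow a level of up to 0.0420 to 0.0527 CPM in a library and 0.008 CPM over all 6. Exon overlap bears on some: 16 of the 39 genes share exon bases with another gene. For Hoxa9, Hoxa11, Hoxb5, Hoxd10 and Hoxd11 that partner was at 0 as well.

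Most genes beside the clusters had far more counts than the Hox genes. Of 24 protein-coding neighbours, the 3 nearest on each side of each cluster, 21 had counts and 19 reached 1 CPM. Beside Hoxa, Skap2 lay 143 kb away at 15.6 CPM. Beside Hoxd, Mtx2 lay 60.7 kb away at 53.5 CPM and Lnpk 88.9 kb away at 37.9 CPM. Hnrnpa1, which encodes a splicing factor near Hoxc, reached 627 CPM. The neighbours at 0 counts were Calcoco2 and the homeobox genes Evx1, 52.6 kb from Hoxa, and Evx2, 8.75 kb from Hoxd, both close relatives of the Hox genes. The 2 remaining neighbours below 1 CPM were Skap1 at 0.448 CPM and Ttll6 at 0.005 CPM.

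Non-coding genes inside the clusters were as low as the Hox genes around them. Of 43 such genes, 16 had counts, 5 were tested and none reached 1 CPM. Hotair, in Hoxc, Hoxa11os, and the microRNA genes Mir10a, Mir10b and Mir196b had 0 counts, although this library type captures microRNA precursors poorly. The antisense gene Hoxaas2, which shares 503 exon bases with Hoxa3 and was chosen after its values were seen, had 3, 10 and 8 counts in WT against 39, 32 and 4 in Mark3-KO. Mark3-KO replicate 3 lay within the WT values, and the log2 fold change was 1.68 with an edgeR adjusted p of 0.144. Gm11539, a pseudogene in the Hoxb cluster that was also chosen after its values were seen, had 84, 74 and 14 counts in WT against 15, 7 and 3 in Mark3-KO. WT replicate 3 lay beside Mark3-KO replicate 1, and the log2 fold change was -2.96 with an edgeR adjusted p of 0.0513.

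Most of the listed partners and regulators of Hox genes reached 1 CPM. All 9 TALE cofactor genes had counts, and 8 reached 1 CPM. By edgeR's adjusted p none of the 9 passed, and none with limma-voom. An unadjusted p below 0.05 was found for 4 of 9, against 45.7% of all tested genes, and 4 of 9 passed with the DESeq2 Wald test, against 36.4%. Pbx2, a homeodomain partner of Hox proteins, measured 26.3 ± 4.98 and 15.2 ± 2.31 CPM (log2 fold change -0.79, edgeR adjusted p 0.0506), and the GC correction brought it to 0.005.

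All 25 Polycomb genes had counts and 24 reached 1 CPM, with 0 past the threshold by edgeR and 16 of 25 at an unadjusted p below 0.05, where 45.7% of all tested genes stood. The DESeq2 Wald test called 9 of them higher and 7 lower, against 36.4% of all tested genes in either direction. Suz12, a core subunit of the complex that methylates histone H3, measured 74.5 ± 12.6 and 120 ± 17.6 CPM (log2 fold change 0.69, edgeR adjusted p 0.0506), with a GC-corrected log2 fold change of 0.03. Among 14 Trithorax and MLL genes, which keep Hox genes active, all reached 1 CPM and 0 passed by edgeR, with 11 at an unadjusted p below 0.05 (45.7% of all genes) and 10 called by the DESeq2 Wald test (36.4% of all genes). Kmt2d measured 141 ± 68.3 and 43.6 ± 8.26 CPM (log2 fold change -1.69, edgeR adjusted p 0.0506), and -0.61 after the GC correction. Of 17 retinoic acid pathway and Cdx genes, inducers of Hox genes in the embryo, 11 were tested and 0 passed by edgeR, with 6 at an unadjusted p below 0.05 (45.7% of all genes) and 5 called lower by the DESeq2 Wald test (36.4% of all genes in either direction). Rara, a retinoic acid receptor, measured 28.8 ± 12.1 and 7.59 ± 2.09 CPM (log2 fold change -1.92, edgeR adjusted p 0.0506), and -0.64 after the GC correction. The median log2 fold change of the 11 was -0.78, and 0.07 after the GC correction. Cdx2 and Cdx4, activators of central Hox genes in the embryo, were at 0 counts, and Cdx1 had 2 counts in all. Of the 17 genes 11 reached 1 CPM, and the median of the list was 0.535 CPM per kb.

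Levels of other patterning genes were set beside those of the Hox genes, and whether they tell position was not tested. Of 24 transcription factor genes of the head skeleton, 15 reached 1 CPM, with a median of 2.54 CPM per kb, and of 14 of the trunk and limb, 8 did, with a median of 0.725 CPM per kb. The Hox median over all 39 was 0.00207 CPM per kb. Msx2, a skull vault factor, measured 126 ± 12.1 CPM in WT against 115 ± 4.37 CPM in Mark3-KO, and Twist1, which keeps the sutures open, 47.7 ± 4.62 and 54.4 ± 6.04 CPM. The log2 fold change was -0.12 for Msx2 and 0.19 for Twist1, and with the GC correction 0.24 and 1.43. By edgeR 0 of the 20 tested head genes and 0 of the 9 tested trunk and limb genes passed, with 4 of each at an unadjusted p below 0.05, against 45.7% of all tested genes. The DESeq2 Wald test called 2 head genes lower and 1 trunk gene higher, against 36.4% of all tested genes in either direction. Tbx15, a trunk and limb factor also known in skull bone, measured 86.1 ± 5.91 and 100 ± 3.91 CPM (log2 fold change 0.22, and 0.52 corrected for GC). Pitx1, Tcf21 and Uncx were at 0 counts, as was Hand2 of the head list, and Tbx5, a forelimb gene, had counts in 1 library.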

How the data were processed

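The deposited table held whole-number counts per Ensembl gene ID for 6 libraries. Per the labels' protocols, Trizol RNA went into TruSeq kit version 2 libraries, which do not mark strand. The authors used GRCm38, HISAT2 2.0.5, StringTie, DESeq2 and FastQC, per the submitters' processing notes. Their roles, the annotation release and the counting of overlapping genes are not given in the sources used here. Symbols came from GENCODE M21 (51719 of 51912 IDs matched, 193 did not), and promoters from RefSeq.

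From the counts, levels and tests were computed with edgeR 4.0.16 under R 4.3.3: filterByExpr, TMM, the quasi-likelihood test, Benjamini-Hochberg adjustment over 19017 genes and a threshold of 0.05. The SE was derived as |log2 fold change| divided by √F. The script was tested on simulated data. No libraries were copies: the chi-square per degree of freedom was 66.3 or more for every pair. The lowest value was that of WT replicate 3 and Mark3-KO replicate 1, while pairs within a group ran from 76.4 to 235. Alternatives used other scalings and filters, DESeq2 1.42.0, limma 3.58.1 (voom), the replicate number as a block, a GC correction (a spline of 6 degrees of freedom per library) and left-out libraries. Totals of 56925883 to 71445243 counts set the floor of 3 counts. The members and lists were chosen with earlier results of these data known. All Hox genes are named where reported; list genes are those with the smallest p or highest level, up to 2 of each, of which some are reported; neighbours are the 3 nearest on each side. Results for some genes are not reported here, though counts over lists include them.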

Additional observations from a re-analysis of the deposited data

How the results depend on the processing

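Over all genes, 41 passed by the quasi-likelihood test of edgeR, and this count moved with the processing: 4510 with library size alone, 5266 with a filter of 1 CPM, 6915 by DESeq2 (Wald test), 27 by limma-voom and 68 after the GC correction. Leaving out 1 library gave 0 to 6460; the 0 came without WT replicate 2, where 5929 genes had an unadjusted edgeR p below 0.05. Without WT replicate 1 and Mark3-KO replicate 3 together it was 0, with 3258 at an unadjusted edgeR p below 0.05. With library size alone the median over all genes was 0.13 on the log2 scale, against 0.02. Whether the replicate numbers pair the libraries was not settled: deviations of same-numbered libraries correlated at 0.495, -0.0442 and 0.418. WT replicates 1 and 3 correlated best with the Mark3-KO library of the same number. WT replicate 2 correlated best with Mark3-KO replicate 1, though weakly (0.0833). With the replicate block 8487 genes passed, and 1869 with the block and the GC correction.

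The count of Hox genes past the threshold was 0 in all fits but 2: it was 1 with the replicate block and the GC correction (Hoxd8, log2 fold change 1.19, edgeR adjusted p 0.0326; 9.83% of all genes passed) and 1 without WT replicate 3 (Hoxd4), for a range of 0 to 1 with a library left out. The edgeR, DESeq2 and voom adjusted p ran from 0.0326 to 0.586 for Hoxd8 and from 0.0326 to 0.699 for Hoxd4. Hox genes whose groups did not overlap numbered 1 of 9 at first (Hoxd8), against 53.3% of all tested genes. With no filter they numbered 2 of 23 (Hoxd3 and Hoxd9, both lower), against 34.1%. With the GC correction they numbered 3 of 9 (Hoxb3, Hoxb4 and Hoxd8, all higher), against 34.6%. Without WT replicate 1 and Mark3-KO replicate 3 they numbered 2 of 9, against 11870 of 19173 genes. They ran from 0 to 4 with a library left out. The 0 came without Mark3-KO replicate 3 (11 tested), against 11167 of 19684 genes. The 4 came without Mark3-KO replicate 1 (10 tested), against 13276 of 19528 genes. At a level of 0.5 CPM 4 Hox genes passed in place of 1, and at 1 CPM per kb 0. The filter of 1 CPM left Hoxd8 as the only Hox gene tested.

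Of 121 gene-level alternatives for the tested Hox genes reported, 103 kept sign and side of the threshold, 16 turned sign and 2 passed the threshold. None of those that turned sign passed. Hoxb3 turned to 0.081 with library size alone, 0.026 with voom, 0.82 with the GC correction and 0.82 with block and GC correction, and ran from -0.27 to 0.30 with a library left out. Hoxd3 turned to 0.45 with the GC correction and 0.43 with block and GC correction. Hoxc13 turned to 0.056 with the GC correction and ran from -2.43 to 0.18 with a library left out, and Hoxb9 from -0.15 to 0.57. Without WT replicate 1 and Mark3-KO replicate 3 the signs turned for Hoxa2 (0.016), Hoxb3 (0.26), Hoxb9 (-0.05) and Hoxc13 (0.51). The cause was not tested. Low counts per library limit every Hox gene but Hoxd8. Intervals cover counting error alone, and the folds at the floor leave out that of the WT counts.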
